A study of Mus musculus with 24 samples.

Results

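The NRF2 antioxidant genes described here are 8 genes found in the count table by their symbols, Nfe2l2, Keap1, Gclc, Gclm, Srxn1, Txnrd1, Nqo1 and Hmox1, out of 23411 genes in the table. All 8 passed the filter on low counts in both fits. Poly(A) RNA of mouse liver was sequenced in 24 libraries, 1 per mouse, with 3 male mice aged 16 to 20 weeks in each of 8 groups on a mixed 129/Sv and C57BL/6 background. The α7HMZ mice carry an exon swap in Hnf4a in every cell, so that only the P2 form of the transcription factor HNF4α is made, and WT mice make the P1 form in adult liver. The groups were α7HMZ and WT livers fasted for 12 h and taken at 10:30, and α7HMZ and WT livers of mice fed ad libitum and taken at 10:30 or 13:30 in the light phase or at 20:30 in the dark phase. The labels place fed 10:30 livers of both genotypes and fasted WT livers on flow cell 375 and all other livers on flow cell 377.

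NRF2, the product of Nfe2l2, is a transcription factor that KEAP1 holds in the cytoplasm and hands to a ubiquitin ligase for destruction. Oxidants and electrophiles modify cysteines of KEAP1, NRF2 then escapes, enters the nucleus and binds antioxidant response elements together with small MAF proteins. Its targets in the liver include the enzymes that make glutathione, the reductases of the thioredoxin system, quinone reductase and heme oxygenase. Because NRF2 is controlled mainly by protein turnover, the RNA level of Nfe2l2 is not a measure of its activity.

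On the mm10 assembly Srxn1 lies at chr2:152105516-152111376 on the forward strand, 11.4 Mb from Hnf4a, and Nfe2l2 lies at chr2:75675513-75704641 on the reverse strand, 87.8 Mb from Hnf4a. Keap1 lies at chr9:21229730-21239361 on the reverse strand and Gclc at chr9:77754535-77794485 on the forward strand. Gclm lies at chr3:122245557-122270732 and Txnrd1 at chr10:82833951-82897712, both on the forward strand. Nqo1 lies at chr8:107388225-107403206 on the reverse strand and Hmox1 at chr8:75093621-75100589 on the forward strand. Txnrd1 shares 1305 bases with Eid3 on the same strand, and Gclm, Keap1, Nfe2l2 and Txnrd1 overlap other annotated transcripts. Reads of these overlaps cannot be assigned with certainty.

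RefSeq promoter windows (GRCm38.p6, 250 bases before to 50 bases after a transcription start) matched 6 of the 8 genes and gave 8 windows, with none for Gclc and Hmox1. The antioxidant response element core TGACNNNGC, searched on both strands, occurred in 4 of these 8 windows, against 12.4% of 32817 promoter windows of the same length. The HNF4 motif CAAAGTCCA, searched on both strands, occurred in 0 of the 8 windows, against 0.475% of all windows. The 4 windows with the core are shown because they include Srxn1, which differed between the genotypes, beside Gclm, Txnrd1 and Nfe2l2, which carried the same core and did not pass that test in fed livers. They are written in the direction of the gene, and capitals mark the core. In Srxn1 (chr2:152105274-152105573, forward strand) the core lay on the opposite strand, 28 bases after the start. In Gclm (chr3:122245307-122245606, forward strand) it lay on the opposite strand, 134 bases before the start. In Txnrd1, at a start within the gene (chr10:82858956-82859255, forward strand), it lay on the opposite strand, 92 bases before that start. In Nfe2l2 (chr2:75704614-75704913, reverse strand) it lay on the strand of the gene, 240 bases before the start.
Srxn1: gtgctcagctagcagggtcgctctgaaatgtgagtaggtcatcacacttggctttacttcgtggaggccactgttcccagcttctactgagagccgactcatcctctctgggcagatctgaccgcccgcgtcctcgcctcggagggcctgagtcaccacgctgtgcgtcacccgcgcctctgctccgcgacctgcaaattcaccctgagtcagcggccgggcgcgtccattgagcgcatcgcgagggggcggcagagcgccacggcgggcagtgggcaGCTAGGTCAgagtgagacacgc
Gclm: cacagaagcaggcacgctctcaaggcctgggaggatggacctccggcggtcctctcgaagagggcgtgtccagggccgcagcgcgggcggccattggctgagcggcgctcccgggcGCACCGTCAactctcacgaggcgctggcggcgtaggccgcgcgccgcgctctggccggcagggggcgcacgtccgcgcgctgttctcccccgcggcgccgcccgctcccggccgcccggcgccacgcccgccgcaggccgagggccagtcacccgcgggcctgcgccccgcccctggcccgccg
Txnrd1: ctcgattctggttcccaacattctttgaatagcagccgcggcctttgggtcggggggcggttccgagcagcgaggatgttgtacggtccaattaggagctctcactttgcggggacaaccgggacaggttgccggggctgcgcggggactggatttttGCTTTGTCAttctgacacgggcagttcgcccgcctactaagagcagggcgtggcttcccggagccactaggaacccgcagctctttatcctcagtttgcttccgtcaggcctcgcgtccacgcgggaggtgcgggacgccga
Nfe2l2: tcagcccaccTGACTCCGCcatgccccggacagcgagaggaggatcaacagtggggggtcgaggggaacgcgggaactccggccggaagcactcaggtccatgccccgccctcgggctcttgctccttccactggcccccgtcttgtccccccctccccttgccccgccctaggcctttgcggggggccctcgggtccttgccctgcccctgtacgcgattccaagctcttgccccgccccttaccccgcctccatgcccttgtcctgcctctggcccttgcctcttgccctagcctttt
A match is a string of letters and was not tested for binding. Other spellings of the element, and bases outside these windows, were not searched. No window of Keap1 or Nqo1 and neither of the other 2 Txnrd1 windows held the core.

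Levels are given as CPM, read counts scaled to a common library size with TMM factors. Total counts ranged from 8545959 to 28445590 per library, with a median of 18875060. In the α7HMZ fed 10:30 liver 1, 50.8% of the counts fell on the ribosomal transcript Rn45s, against at most 3.76% in the other libraries. WT 20:30 liver 2 and α7HMZ 20:30 livers 1 and 3 had the highest levels of the bile duct gene Krt19 and the pancreatic gene Ctrb1. Sums of 7 bile duct markers were also highest in these livers, at 71.6, 92.5 and 81.1 CPM. The sum of 8 pancreatic acinar markers was highest in WT 20:30 liver 2, at 60.1 CPM. It was 22.3 and 27.1 CPM in α7HMZ 20:30 livers 1 and 3, below the 30.5 to 60.1 CPM of other fed groups. In those α7HMZ livers the acinar list thus did not follow Ctrb1. The Rn45s-rich library and the livers highest in Krt19 are the 4 libraries left out together below. Calls of the 8 genes that changed without them, and the counts of the pathway lists on the fed average, are given again. Summed levels of 10 hepatocyte markers, among them Alb and Apoa1, ranged over 100032 to 150390 CPM in α7HMZ and 115172 to 196473 CPM in WT, so that the labelled tissue carried its markers in each library. The gene-level count of Hnf4a does not read the exon swap and checks no label.

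Per kilobase of exon, and averaged over the 24 libraries, Gclc was the most abundant of the 8 genes at 62.7 CPM per kb, and Nqo1 the least at 3.69 CPM per kb. Gclm at 20.3, Txnrd1 at 16.6, Nfe2l2 at 14.0, Srxn1 at 10.9, Keap1 at 9.95 and Hmox1 at 9.28 CPM per kb lay between them. Across the 8 groups, the highest group mean was 3.68 times the lowest for Srxn1 and 3.46 times for Gclc, against 1.24 times for Keap1 and 1.29 times for Gclm. The single-library counts behind these levels were lowest for Nqo1, at 32 to 220 reads, and reached 982 to 14452 reads for Gclc. Srxn1 and Gclc, a peroxiredoxin repair enzyme and the catalytic subunit of glutathione synthesis, thus varied most, and the sensor Keap1 least of the 8.

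**Figure D1:**
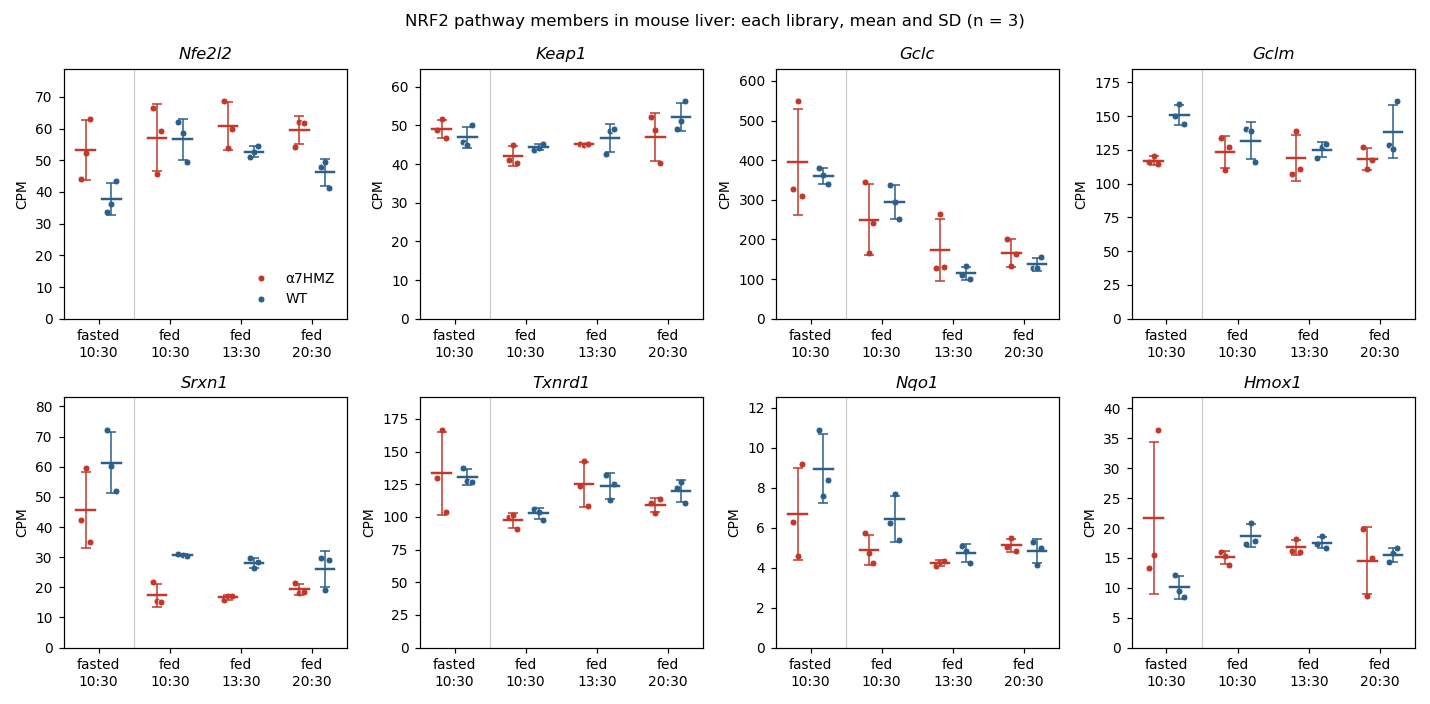
Level of each of the 8 genes in CPM (vertical axis) in fasted 10:30 and fed 10:30, 13:30 and 20:30 livers, with α7HMZ (red) left of WT (blue); points are libraries, bars are group means and whiskers the SD (n = 3). Srxn1 in fed livers lay at 15.1 to 21.8 CPM in α7HMZ and at 19.3 to 30.9 CPM in WT, and stood highest in both fasted groups.

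The first question was which of the genes differed in level between α7HMZ and WT livers of fed mice. Srxn1, which encodes sulfiredoxin, the enzyme that reduces over-oxidised peroxiredoxins back to their active form, was lower in α7HMZ livers and was the only 1 of the 8 genes to pass the test (edgeR quasi-likelihood, Benjamini-Hochberg adjusted p under 0.05) at any fed time or on average. At 10:30 it had 21.8, 15.3 and 15.1 CPM in α7HMZ livers, against 30.9, 30.8 and 30.5 CPM in WT livers. The genotypes did not overlap, and α7HMZ stood at a log2 fold change of -0.82 (edgeR adjusted p = 0.0011, SE 0.15).

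At 13:30 Srxn1 had 15.7, 17.3 and 17.0 CPM in α7HMZ livers, against 29.8, 26.4 and 28.3 CPM in WT livers, again without overlap (log2 fold change -0.75, edgeR adjusted p = 0.00219, SE 0.15). At 20:30 it had 21.4, 18.3 and 18.4 CPM in α7HMZ livers, against 29.7, 19.3 and 29.2 CPM in WT livers. WT 20:30 liver 2 fell inside the α7HMZ range, and the log2 fold change of -0.44 (SE 0.15) just missed the threshold at an edgeR adjusted p of 0.05003. Without WT 20:30 liver 2 it was -0.60 (adjusted p = 0.00651), and without the 4 libraries named above it was -0.69 (adjusted p = 0.00745), a value that rests on the single α7HMZ 20:30 liver left, liver 2, which is assumed to vary as the other groups do. It also passed without α7HMZ 10:30 liver 1, 2 or 3 (adjusted p = 0.0215, 0.0483 and 0.0386). Averaged over the 3 times, Srxn1 was lower by a log2 fold change of -0.67 (SE 0.088, 95% interval -0.86 to -0.49, edgeR adjusted p = 1.06e-05). In bulk liver, fewer cells that make a transcript and less of it per cell cannot be told apart. Srxn1 lies 11.4 Mb from the swapped Hnf4a, and the mice had a mixed background. Whether strain variants near Hnf4a differed between the genotypes was not tested.

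At 10:30 1 of the 8 genes was thus lower and 0 higher in α7HMZ livers, where 8.36% of all tested genes were higher and 8.98% lower. At 13:30 the same gene alone was lower, with 6.19% of all genes higher and 6.61% lower. At 20:30 0 of 8 passed with edgeR, 2 had an unadjusted p under 0.05, and DESeq2 called 1, with 8.29% of all genes higher and 10.8% lower. On the fed average 13.3% of all genes were higher and 13.2% lower. The median log2 fold change of the 8 genes on the fed average was -0.11, against 0.03 over all genes. The count of 1 gene in 8 stands near these shares.

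Nfe2l2 itself, the gene of NRF2, had 54.3, 62.2 and 61.9 CPM in α7HMZ livers at 20:30, against 47.9, 49.4 and 41.3 CPM in WT livers. These values did not overlap, but the log2 fold change of 0.36 (SE 0.13) did not pass over all genes (edgeR adjusted p = 0.0627). It passed with upper quartile factors (0.41, adjusted p = 0.0403), with offsets for GC content and quantiles (0.39, adjusted p = 0.04996), with a minimum of 50 counts (0.38, adjusted p = 0.0482) and without α7HMZ 10:30 liver 2 (0.36, adjusted p = 0.0358). On the fed average it was 0.19 (SE 0.076, adjusted p = 0.0692), and it passed with upper quartile factors, with GC and quantile offsets, and without α7HMZ 10:30 liver 2. Keap1, the cysteine sensor that delivers NRF2 for destruction, averaged 47.1 ± 6.17 CPM in α7HMZ at 20:30 and 52.2 ± 3.66 CPM in WT (SD, n = 3 each). Its fed average log2 fold change was -0.09 (95% interval -0.22 to 0.03, adjusted p = 0.281).

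Gclc and Gclm encode the catalytic and the modifier subunit of glutamate-cysteine ligase, the rate-limiting enzyme of glutathione synthesis. Gclc at 13:30 had 128, 264 and 129 CPM in α7HMZ livers, against 109, 134 and 99.6 CPM in WT livers. α7HMZ liver 2 stood high and the other α7HMZ livers lay inside the WT range, and the log2 fold change of 0.61 (SE 0.26) did not pass (edgeR adjusted p = 0.158). On the fed average Gclc stood at 0.22 (95% interval -0.10 to 0.54) and Gclm at -0.13 (95% interval -0.28 to 0.02), and neither passed. Txnrd1, the cytosolic thioredoxin reductase, stood at -0.06 on the fed average (95% interval -0.19 to 0.06).

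Nqo1, the NAD(P)H quinone reductase that is a common readout of NRF2 activity, was scarce in these livers, at 4.08 to 10.9 CPM over all libraries. At 10:30 it had 5.73, 4.71 and 4.26 CPM in fed α7HMZ livers, against 6.24, 7.69 and 5.38 CPM in fed WT livers. α7HMZ liver 1, the library rich in Rn45s, overlapped the WT range, and the log2 fold change of -0.41 (SE 0.16) did not pass (edgeR adjusted p = 0.0917). Without that library it was -0.55 and passed (adjusted p = 0.0342), and without all 4 libraries named above it was -0.56 (adjusted p = 0.037). Hmox1, the inducible heme oxygenase that opens the heme ring, stood at -0.16 on the fed average (SE 0.11, adjusted p = 0.335). Without the 4 libraries it passed at 10:30 (-0.39, adjusted p = 0.0455). Its values without them at 20:30 (-0.83, adjusted p = 0.0131) and on the fed average (-0.42, adjusted p = 0.00179) rest on α7HMZ 20:30 liver 2 alone at that time, with the spread taken from the other groups, and that liver had the lowest fed level of Hmox1, 8.66 CPM.

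**Figure D2:**
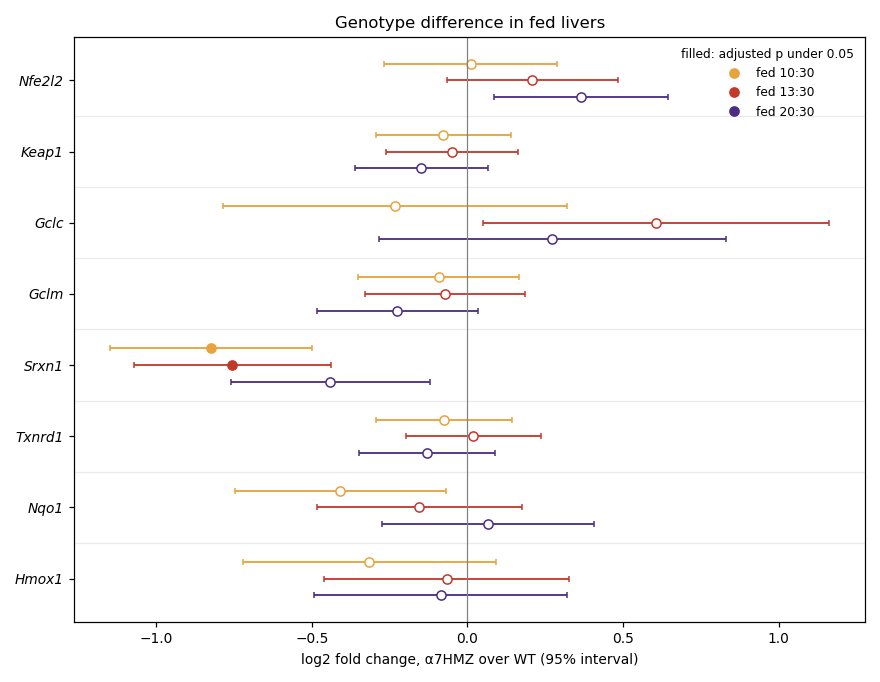
log2 fold change of α7HMZ over WT fed livers for each of the 8 genes at 10:30, 13:30 and 20:30 (horizontal axis), with 95% intervals. Filled points passed the adjusted p threshold of 0.05. Filled points belong to Srxn1 alone, at -0.82 for 10:30 and -0.75 for 13:30. Its point at 20:30, -0.44, is open, and the intervals of the other genes mostly cross 0.

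The next question was whether the genotype difference varied over the day and whether the genes themselves did. With the edgeR test that the 3 fed genotype differences are equal, 0 of the 8 genes passed, 0 had an unadjusted p under 0.05, and DESeq2 called 0, where 4.99% of all genes passed. The adjusted p ran from 0.275 for Gclc to 0.863 for Keap1. The smaller difference of Srxn1 at 20:30 than at 10:30 was therefore not separated from the spread between mice (adjusted p = 0.385).

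Between 20:30 and 13:30, both on flow cell 377, 0 of the 8 genes passed in α7HMZ livers, where 3.16% of all genes were higher at 20:30 and 2.05% lower, and 0 passed in WT livers, where 11.6% were higher and 9.97% lower. In both genotypes 0 of the 8 had an unadjusted p under 0.05 with edgeR, and DESeq2 called 0. Without the 4 libraries named above, Hmox1 was lower at 20:30 in α7HMZ livers (log2 fold change -0.97, adjusted p = 0.0057), a value that rests on α7HMZ 20:30 liver 2 alone. In α7HMZ livers the log2 fold changes across this interval were 0.27 for Nqo1, 0.22 for Srxn1, 0.06 for Keap1, -0.01 for Gclm, -0.03 for Nfe2l2, -0.07 for Gclc and -0.20 for both Txnrd1 and Hmox1. In WT livers they were 0.26 for Gclc, 0.16 for Keap1, 0.15 for Gclm, 0.05 for Nqo1, -0.05 for Txnrd1, -0.10 for Srxn1, -0.18 for Hmox1 and -0.19 for Nfe2l2.

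The 13:30 and 10:30 livers were on different flow cells, so the time of day and the flow cell cannot be told apart in the difference between them. Gclc in fed WT livers had 109, 134 and 99.6 CPM at 13:30, against 336, 294 and 252 CPM at 10:30, a log2 fold change of -1.37 (edgeR adjusted p = 0.00193, SE 0.27). The groups stood far apart, and Gclc was the only 1 of the 8 genes to pass in WT livers, where 9.52% of all genes were higher at 13:30 and 9.61% lower. In fed α7HMZ livers Gclc had 128, 264 and 129 CPM at 13:30, against 345, 165 and 240.4 CPM at 10:30. These values overlapped, the log2 fold change was -0.53 (SE 0.26, adjusted p = 0.279), and 0 of the 8 genes passed with edgeR, where 2.27% of all genes were higher and 2.4% lower. The difference of Gclc between the genotypes in this respect is part of the genotype by time test above, which it did not pass.

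Of the other genes, Nqo1 in WT livers was at 4.23 to 5.09 CPM at 13:30, against 5.38 to 7.69 CPM at 10:30 (log2 fold change -0.45, adjusted p = 0.051), and it passed without WT 10:30 liver 3 (-0.55, adjusted p = 0.0353), without WT 20:30 liver 2 (adjusted p = 0.0485) without α7HMZ 10:30 liver 1 (adjusted p = 0.0321) or 3 (adjusted p = 0.0352) and without the 4 libraries named above (-0.46, adjusted p = 0.04). Txnrd1 in α7HMZ livers had 123, 143 and 109 CPM at 13:30, against 99.8, 102 and 91.1 CPM at 10:30, with no overlap (log2 fold change 0.36, adjusted p = 0.0549). It was the only 1 of the 8 with an unadjusted p under 0.05 in that genotype, and DESeq2 called it (adjusted p = 0.0149), as did edgeR without α7HMZ 13:30 liver 3 (0.45, adjusted p = 0.0372) or WT 20:30 liver 3 (adjusted p = 0.049). Srxn1 stood at -0.06 in α7HMZ and -0.13 in WT, and Nfe2l2 at 0.09 in α7HMZ and -0.11 in WT, and neither passed.

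The catalytic and the modifier subunit did not keep a fixed proportion. In each library Gclc was divided by Gclm, both in CPM, as a description of their balance. In α7HMZ livers the ratio was 1.5 to 2.59 at 10:30, 1.16 to 1.90 at 13:30 and 1.19 to 1.58 at 20:30. In WT livers it was 2.12 to 2.40 at 10:30, 0.769 to 1.05 at 13:30 and 0.973 to 1.01 at 20:30. Each α7HMZ liver at 13:30 and 20:30 stood above each WT liver of the same time, and Gclm moved little in either genotype. In fasted livers the ratio was 2.71 to 4.55 in α7HMZ and 2.28 to 2.53 in WT, again without overlap. These ratios were not tested.

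Fasting was compared at 10:30. In WT livers, fasted and fed were on the same flow cell, while in α7HMZ livers fasted and fed were on different flow cells, so that fasting and the flow cell cannot be told apart there. Srxn1 was higher in fasted livers of both genotypes. Fasted α7HMZ livers had 42.4, 59.4 and 34.9 CPM of Srxn1, against 21.8, 15.3 and 15.1 CPM in fed α7HMZ livers, a log2 fold change of 1.40 (edgeR adjusted p = 5.31e-04, SE 0.20). Fasted WT livers had 72.1, 60.2 and 51.9 CPM, against 30.9, 30.8 and 30.5 CPM in fed WT livers, a log2 fold change of 0.99 (SE 0.19, adjusted p = 0.00297). In neither genotype did the fasted and fed livers overlap.

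In α7HMZ livers Srxn1 was the only 1 of the 8 genes that passed with fasting, where 6.68% of all genes were higher and 5.9% lower. Gclc had 326, 549 and 309 CPM in fasted α7HMZ livers, against 345, 165 and 240.4 CPM in fed ones. α7HMZ fed liver 1, the Rn45s-rich library, lay inside the fasted range, and the log2 fold change was 0.66 (edgeR adjusted p = 0.104, SE 0.25). Without that library it was 0.96 and passed (adjusted p = 0.0194). Txnrd1 had 130.2, 166 and 104 CPM in fasted α7HMZ livers, against 99.8, 102 and 91.1 CPM in fed ones, without overlap (log2 fold change 0.46, SE 0.14, adjusted p = 0.0513). It passed in 9 of 23 alternatives. Among them were those without α7HMZ fasted liver 3 (0.60, adjusted p = 0.00715), without WT fasted liver 3 (adjusted p = 0.0497) and with DESeq2 (adjusted p = 0.0193). Hmox1 at 0.53 (SE 0.30) and Nfe2l2 at -0.10 (SE 0.17) did not pass. The median over the 8 genes was 0.45, against -0.01 over all genes.

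In WT livers 1 of the 8 genes was higher with fasting and 2 were lower, where 12% of all genes were higher and 10.6% lower. Nfe2l2 had 33.8, 36.1 and 43.6 CPM in fasted WT livers, against 62.1, 58.4 and 49.5 CPM in fed WT livers. It was lower without overlap (log2 fold change -0.59, edgeR adjusted p = 0.0222, SE 0.17), the lowest mean of Nfe2l2 in the 8 groups, while its target Srxn1 was at its highest mean in the same livers. The Nfe2l2 call was lost with GC and quantile offsets (-0.49, adjusted p = 0.0608) and when WT fed liver 1 (-0.52, adjusted p = 0.0868), WT fed liver 2 (-0.57, adjusted p = 0.0723), WT fasted liver 1 (-0.52, adjusted p = 0.0683) or WT fasted liver 2 (-0.56, adjusted p = 0.0736) was left out. Hmox1 was the other gene that was lower, at 12.2, 9.50 and 8.51 CPM in fasted WT livers, against 17.4, 20.9 and 17.9 CPM in fed WT livers (log2 fold change -0.90, SE 0.30, adjusted p = 0.0465). That call was lost in 12 of 23 alternatives, with adjusted p from 0.0012 to 0.154, among them those without any 1 of the 6 fed livers, without WT fasted liver 2 and without WT fasted liver 3, which gave the highest (-0.79). Gclc, at 0.29 (SE 0.25), did not pass. Txnrd1, at 0.34 (SE 0.14, adjusted p = 0.101), did not overlap between fasted and fed WT livers and did not pass, except in a fit of these groups alone (adjusted p = 0.0238) and without α7HMZ fasted liver 2 (0.0434) or 3 (0.0436).

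Keap1, at 0.23 in α7HMZ and 0.07 in WT, Gclm, at -0.08 in α7HMZ and 0.19 in WT, and Nqo1 did not pass with fasting in either genotype. Nqo1 averaged 6.69 ± 2.31 CPM in fasted α7HMZ livers and 4.90 ± 0.752 CPM in fed α7HMZ livers, a log2 fold change of 0.45 (SE 0.25). In WT livers it averaged 8.95 ± 1.71 CPM fasted and 6.44 ± 1.17 CPM fed, a log2 fold change of 0.47 (SE 0.24; SD, n = 3 in each group). The difference between these fasting changes was -0.02 (95% interval -0.78 to 0.74), which leaves room for a difference in either direction.

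**Figure D3:**
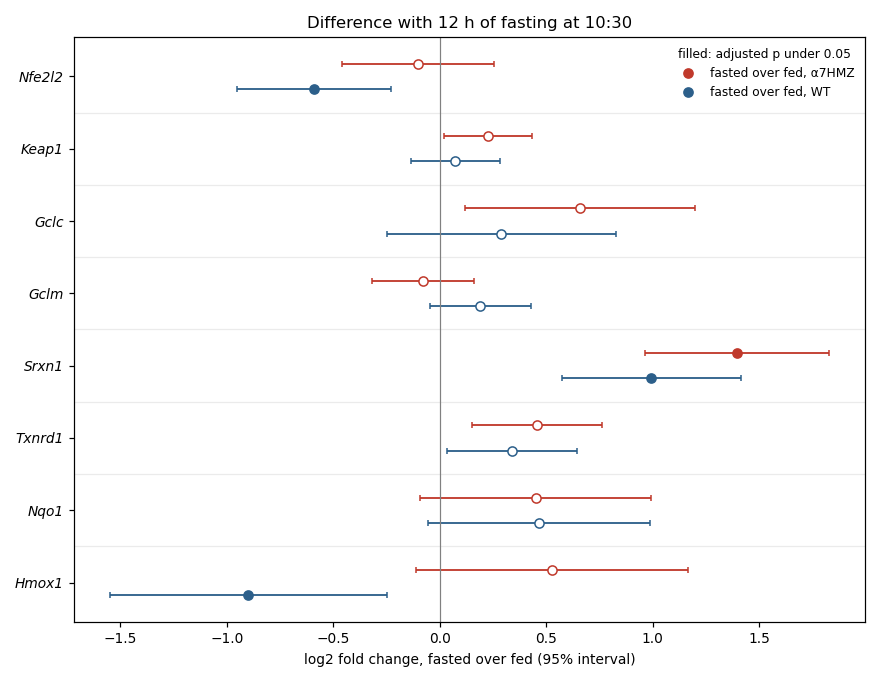
log2 fold change with 95% interval (horizontal axis) for each of the 8 genes, fasted over fed, in α7HMZ and in WT livers. Filled points passed the adjusted p threshold of 0.05. Srxn1 was filled in both genotypes, at 1.40 in α7HMZ and 0.99 in WT, while Nfe2l2 at -0.59 and Hmox1 at -0.90 were filled in WT alone.

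In fasted livers the genotypes were on different flow cells, so genotype and flow cell cannot be told apart. Of the 8 genes, 1 was higher and 1 lower in α7HMZ, where 6.9% of all genes were higher and 8.65% lower, and the median of the 8 was 0.05 against 0.00 over all genes. Gclm was lower, at 116, 121 and 114 CPM in fasted α7HMZ livers, against 149.9, 159 and 144 CPM in fasted WT livers (log2 fold change -0.37, edgeR adjusted p = 0.0368, SE 0.11). The groups did not overlap, yet the call was lost in 11 of 23 alternatives, with adjusted p from 0.0135 to 0.135. These included leaving out WT fed liver 1 or 2 or any 1 of the 6 fasted livers other than WT fasted liver 3, and the highest adjusted p, 0.135, came without WT fasted liver 2 (-0.33).

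Nfe2l2 had 44.1, 52.4 and 63.0 CPM in fasted α7HMZ livers, against 33.8, 36.1 and 43.6 CPM in fasted WT livers. It did not overlap and did not pass (log2 fold change 0.49, edgeR adjusted p = 0.0645, SE 0.17), except without α7HMZ fasted liver 1 (0.60, adjusted p = 0.0373), without α7HMZ fed liver 2 (0.49, adjusted p = 0.049), in a joint fit of the 24 libraries (adjusted p = 0.02) and with DESeq2 (adjusted p = 0.04). Srxn1 kept the sign of the fed livers at -0.43 (SE 0.19, adjusted p = 0.146), with fasted α7HMZ liver 2 at 59.4 CPM inside the WT range of 51.9 to 72.1 CPM. Without fasted α7HMZ liver 2 it was -0.67 and passed (adjusted p = 0.0328). The test of whether the fasting change differed between the genotypes called 0 of the 8 genes with edgeR and 0 with DESeq2, and 1, Hmox1, had an unadjusted p under 0.05, where 0.16% of all genes were called higher and 0.0916% lower. Keap1 (0.06), Nqo1 (-0.44), Gclc (0.13) and Txnrd1 (0.03) did not pass between the fasted genotypes. For Srxn1 the difference between the fasting changes was 0.40 (95% interval -0.19 to 1.00), so the interval held differences in either direction.

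Hmox1 was higher in fasted α7HMZ livers, at 13.4, 15.4 and 36.4 CPM, against 12.2, 9.50 and 8.51 CPM in fasted WT livers (log2 fold change 1.10, edgeR adjusted p = 0.0258, SE 0.30). The call rested on α7HMZ fasted liver 3, without which the log2 fold change was 0.50 (adjusted p = 0.0825). It was also lost without WT fasted liver 2 (1.06, adjusted p = 0.0881), without WT fasted liver 3 (0.99, adjusted p = 0.0915) and in a fit of the fasted groups alone (1.11, adjusted p = 0.0973). Heme oxygenase is made in the liver by Kupffer cells, the resident macrophages that clear aged red cells, as well as by hepatocytes. The summed level of 10 Kupffer cell and macrophage markers, of which 0 were at 0, was 190, 211 and 953 CPM in fasted α7HMZ livers 1, 2 and 3, against 212, 139 and 115 CPM in fasted WT livers 1, 2 and 3. The library with the most Hmox1 was thus the library with the most macrophage marker RNA.

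Among those 10 markers, 6 were higher and 0 lower in fasted α7HMZ against fasted WT livers, with a median of 1.48. Of all genes 6.9% were higher and 8.65% lower in that comparison, which also lies across flow cells. Without α7HMZ fasted liver 3, 0 of the 10 markers passed. With fasting in WT livers, where Hmox1 was lower, 0 markers were higher and 3 lower, with a median of -1.21. There 12% of all genes were higher and 10.6% lower. Of 8 sinusoidal endothelial markers, 6 were lower with fasting in WT livers and 3 were higher in fasted α7HMZ against fasted WT livers. Without α7HMZ fasted liver 3, 0 of these 8 were higher. Over the 24 libraries Hmox1 amounted to 3.82% to 8.22% of the macrophage marker sum, with a median of 5.49%. The lowest share was that of α7HMZ fasted liver 3, which had the highest marker sum. The highest share was that of fed α7HMZ 20:30 liver 2. Fed α7HMZ 20:30 liver 2, with the lowest marker sum of all libraries at 105 CPM, also had the lowest fed level of Hmox1, 8.66 CPM. The part of macrophage RNA in the Hmox1 differences was not tested.

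**Figure D4:**
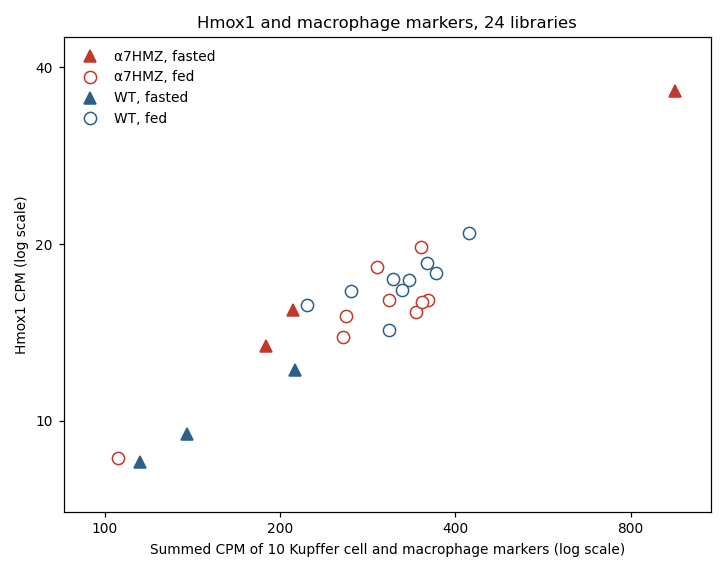
Hmox1 level (vertical axis, CPM, log scale) against the summed level of 10 Kupffer cell and macrophage markers (horizontal axis, CPM, log scale) in the 24 libraries, coloured by genotype. α7HMZ fasted liver 3 stood highest on both axes, at 953 and 36.4 CPM, and the fasted WT livers stood low on both, at 115 to 212 and 8.51 to 12.2 CPM.

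The order of the group means shows how differently the 8 genes ran. For Srxn1 it was WT fasted (61.4 CPM), α7HMZ fasted (45.6), WT fed 10:30 (30.7), WT 13:30 (28.2), WT 20:30 (26.1), α7HMZ 20:30 (19.4), α7HMZ fed 10:30 (17.4) and α7HMZ 13:30 (16.7). The libraries of neighbours in that order did not overlap between α7HMZ fasted and WT fed 10:30 and between WT fed 10:30 and WT 13:30, and they overlapped elsewhere. For Gclc the order was α7HMZ fasted (395), WT fasted (361), WT fed 10:30 (294), α7HMZ fed 10:30 (250.3), α7HMZ 13:30 (174), α7HMZ 20:30 (166), WT 20:30 (137) and WT 13:30 (114), and the libraries of WT fasted and WT fed 10:30 alone did not overlap among neighbours. For Nfe2l2 it ran α7HMZ 13:30 (60.8), α7HMZ 20:30 (59.4), α7HMZ fed 10:30 (57.1), WT fed 10:30 (56.7), α7HMZ fasted (53.2), WT 13:30 (52.7), WT 20:30 (46.2) and WT fasted (37.8), with a gap between the libraries of WT 13:30 and WT 20:30 alone. For Keap1, Nqo1, Gclm, Txnrd1 and Hmox1 the libraries of all neighbouring groups overlapped.

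As a description over the 8 group means of log2 CPM, which share flow cells and control livers, Nqo1 ran with Srxn1 (Pearson r = 0.89) and with Gclc (0.81). Nfe2l2 ran against its textbook targets Gclm (-0.88), Srxn1 (-0.78) and Nqo1 (-0.70), and with Hmox1 (0.66). Among 11092 genes whose log2 CPM averaged 1 or more, the genes most like Srxn1 were Pex5 (0.98), Clca1 (0.97) and Poll (0.97). Those most like Hmox1 were the macrophage genes C1qc (0.97), Csf1r (0.97) and C1qb (0.97). Those most like Gclc were Glt28d2 (0.99), Lonp2 (0.98) and Asap2 (0.98), and those most like Nqo1 were 1810010H24Rik (0.99), Igfbp1 (0.98) and Cnnm3 (0.97). For Nfe2l2 they were Kdelc2 (0.97), Nup188 (0.96) and Cstf2 (0.96), and for Keap1 Pla2g6 (0.94), Serpina3g (0.94) and Rab43 (0.93). For Gclm they were Zranb1 (0.98), Ift46 (0.97) and Zfyve19 (0.96), and for Txnrd1 Slc35d1 (0.97), Fbxl17 (0.95) and Bmp2k (0.95).

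The 8 genes were then set beside other genes of the same pathways. On the fed average, of 12 partners and regulators of the KEAP1-NRF2 complex 0 were higher and 2 lower in α7HMZ livers, a share near the 13.3% and 13.2% of all genes. Dpp3, a peptidase that competes with NRF2 for KEAP1, had 37.3 to 45.4 CPM in fed α7HMZ livers, against 45.4 to 57.5 CPM in fed WT livers, and fell by 0.35 (edgeR adjusted p = 9.32e-05, SE 0.055). Maff, a small MAF partner, fell by 0.53 (adjusted p = 0.0303), while Btrc at 0.15 and Mafk at -0.18 did not pass. The count was 1 lower without any 1 of 8 of the 18 fed libraries and without the 4 libraries named above, where Maff was lost (adjusted p = 0.0716), and the median of these 12 genes was -0.04.

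For the glutathione, thioredoxin and NADPH lists, the fed average shares over all genes were 13.3% higher and 13.2% lower. Of 10 tested genes of glutathione synthesis and use 0 were higher and 3 lower. These were Glrx, a glutaredoxin that reduces protein-glutathione bonds (-0.54, SE 0.082), Gss, the glutathione synthetase that acts after glutamate-cysteine ligase (-0.40, SE 0.063), and Gpx4, the lipid peroxide reductase (-0.28, SE 0.091), while Slc3a2 at 0.13 did not pass. Without the 4 libraries 2 were lower, with Gpx4 lost (-0.23, adjusted p = 0.156), and with GC and quantile offsets 2 were higher and 2 lower. Of 12 thioredoxin and peroxiredoxin genes 0 were higher and 3 lower, namely the reductase Txnrd3 (-0.42), the mitochondrial thioredoxin Txn2 (-0.21) and the peroxiredoxin Prdx6 (-0.23), and with GC and quantile offsets this split turned to 4 higher and 1 lower. Without the 4 libraries 1 was lower, Txnrd3 (-0.33), with Txn2 (adjusted p = 0.0744) and Prdx6 (adjusted p = 0.0951) lost. Txnip, the thioredoxin inhibitor, stood at 0.43 and did not pass. Of 6 genes that supply NADPH only Idh1 was lower (-0.33), with 0 lower without the 4 libraries (Idh1 -0.24, adjusted p = 0.0677) and 2 higher and 0 lower under the same offsets, and Taldo1 (-0.14), Tkt (0.15) and Me1 (0.16) did not pass.

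Of 24 NRF2-responsive detoxification and transport genes 7 were higher and 7 lower, against 13.3% and 13.2% of all genes. The count was 3 higher and 6 lower without the 4 libraries named above and 11 higher and 6 lower with GC and quantile offsets, and the 7 higher fell to 5 or 6 without any 1 of 13 of the 18 fed libraries, so that the higher count does not stand apart from the background share in each setting. The conjugating and oxidising enzymes Ugt1a6a (-0.56, SE 0.067), Aldh1a1 (-0.60, SE 0.093) and Gsta1 (-0.77, SE 0.12) fell, and Gstp1 (0.63, SE 0.095) rose. Glutathione transferase and Ugt1a genes have near-identical copies, so their counts are uncertain under unique alignment. Of 8 heme and iron genes 2 were higher and 3 lower, with the iron exporter Slc40a1 (0.42) and the heme transporter Slc48a1 (0.20) higher and the constitutive heme oxygenase Hmox2 (-0.27), the biliverdin reductase Blvrb (-0.27) and the ferritin subunit Fth1 (-0.23) lower, against 4 higher and 1 lower with GC and quantile offsets, 1 higher and 2 lower without the 4 libraries, and 1 higher without any 1 of 13 of the 18 fed libraries. The count of lower heme and iron genes was 2 in place of 3 without any 1 of 14 of the 18 fed libraries. Summed erythroid markers were 52.8 to 83.3 CPM in fed α7HMZ livers, against 144 to 194 CPM in fed WT livers, and their part in these heme genes was not tested. Of 8 other antioxidant enzymes 0 were higher and 6 lower, against 13.2% of all genes, with 4 lower without the 4 named libraries, and 1 higher and 2 lower with GC and quantile offsets. Msra, a methionine sulfoxide reductase, had 94.0 to 124 CPM in fed α7HMZ livers, against 138 to 201 CPM in fed WT livers (-0.54, SE 0.057, adjusted p = 8.02e-07). Catalase (Cat, -0.41), selenoprotein P (Sepp1, -0.43) and the cytosolic superoxide dismutase Sod1 (-0.32) fell with it. Of the 10 hepatocyte markers 0 were higher and 6 lower in the same comparison, with a median of -0.29, against -0.31 for these 8 enzymes, and with GC and quantile offsets 3 were higher and 1 lower. Their part in the fall of these enzymes was not tested.

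With fasting, the autophagy receptor Sqstm1, which binds KEAP1, and the small MAF gene Mafg were higher in fasted livers of α7HMZ (0.60 and 0.44) and of WT (0.44 and 0.53), 2 higher and 0 lower of 12 in each genotype, where 6.68% of all genes were higher and 5.9% lower in α7HMZ and 12% and 10.6% in WT. Of the thioredoxin list 2 of 12 were higher in each genotype, Txnip (1.42 in α7HMZ and 0.98 in WT) and the sestrin Sesn2 (1.23 in α7HMZ and 1.54 in WT). Of 6 NADPH genes 0 passed in α7HMZ livers and 4 were lower in WT livers, Pgd (-1.13), Idh1 (-0.79), Tkt (-0.62) and Taldo1 (-0.60). The difference between the genotypes was tested as above and called none of these 4 genes. Of the 24 detoxification and transport genes 1 was higher and 8 lower in α7HMZ livers and 3 were higher and 7 lower in WT livers, against those same background shares, among them the glutathione transferases Gsta3 (-1.52 in α7HMZ and -1.46 in WT) and Gstm3 (-1.32 and -1.72). Genes named for fasting and for the day were chosen after their values were seen.

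Other members of the lists passed in glutathione use, with 1 higher and 0 lower of 10 in fasted α7HMZ livers (Glrx, 0.57) and 2 higher and 2 lower in fasted WT livers (Gsr 0.50 and Glrx 0.89; Slc7a11 -0.93 and Chac1 -1.47). In these fasting comparisons 6.68% of all genes were higher and 5.9% lower in α7HMZ, and 12% and 10.6% in WT. Of the 8 heme and iron genes 2 were higher and 1 lower in α7HMZ livers and 3 were higher and 2 lower in WT livers, and of the 8 other antioxidant enzymes 0 passed in either genotype with edgeR, with 1 lower in WT livers with DESeq2. Between the genotypes after fasting, the smallest p of each list belonged to Dpp3 (-0.47, edgeR adjusted p = 0.0108), Glrx (-0.89, adjusted p = 0.00123), Txnip (0.74, adjusted p = 0.0617, not passed), Me1 (0.88, adjusted p = 0.00675), Gsta2 (-1.64, adjusted p = 0.00141), Slc40a1 (0.98, adjusted p = 5.47e-04) and Msra (-0.43, adjusted p = 0.026). Dpp3, Glrx, Slc40a1 and Msra kept in fasted livers the sign they had on the fed average.

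Between 20:30 and 13:30 genes of these lists passed in WT livers, where 0 of the 8 genes did. Of the KEAP1-NRF2 partners 0 were higher and 5 lower of 12 at 20:30, where 11.6% of all genes were higher and 9.97% lower, Cul3 (-0.48), Mafk (-0.86), Bach1 (-0.94), Nfe2l1 (-0.43) and Syvn1 (-1.84). Of the 10 glutathione genes 4 were higher and 0 lower, among them Glrx (1.14) and Gpx4 (0.88), and of the 12 thioredoxin genes 6 were higher and 0 lower, among them Prdx5 (0.72) and Prdx4 (0.62). The thioredoxin count was 2 without WT 20:30 liver 3, and 3 without WT 20:30 liver 2 or without WT 13:30 liver 3. Of the 10 hepatocyte markers 5 were higher and 0 lower in the same comparison, and 0 higher and 1 lower with GC and quantile offsets. In α7HMZ livers, where 3.16% of all genes were higher and 2.05% lower, 0 higher and 1 lower of the partners (Mafk, -0.50), 1 higher and 0 lower of the glutathione genes (Glrx, 0.84) and 1 higher and 1 lower of the thioredoxin genes (Prdx3 0.52 and Txnip -1.12) passed. Whether the dark and light difference of these lists differs between the genotypes was not tested as a list.

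**Figure D5:**
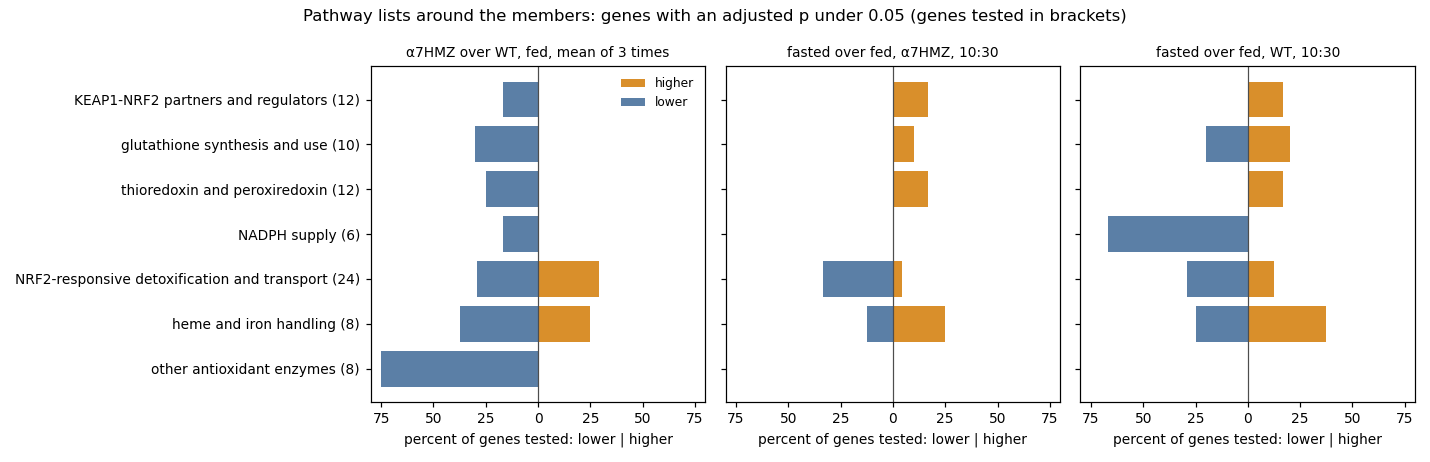
Percent of the tested genes of each of 7 pathway lists that were higher or lower (horizontal axis) for α7HMZ over WT on the fed average, for fasting in α7HMZ and for fasting in WT. On the fed average 6 of 8 other antioxidant enzymes were lower and 0 higher, and 7 of 24 detoxification genes were lower and 7 higher. Of all genes 13.2% were lower and 13.3% higher. With GC and quantile offsets 2 of the 8 antioxidant enzymes were lower and 1 higher. With fasting in WT 4 of 6 NADPH genes were lower, against 10.6% of all genes.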

How the data were processed

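Raw read counts per gene of 24 liver libraries were analysed. The authors aligned reads to mm10 with TopHat2 2.1.1, kept 1 alignment per read and made the deposited counts with HTSeq 0.6.1, as the methods and the submitters' notes on processing state. The kit does not mark strand. The deposited FPKM were not used: over 13364 genes they equal the count times 1 factor per gene and 1 per library.

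Counts were fitted with edgeR 4.0.16 in R 4.3.3 (filterByExpr, TMM, quasi-likelihood tests, Benjamini-Hochberg adjusted p under 0.05 over all genes) in 2 fits, of 18 fed libraries (13334 genes) and of 12 libraries at 10:30 (13103 genes). Alternatives used limma 3.58.1 and DESeq2 1.42.0. Tables were joined with pandas 2.3.3 and numpy 2.4.6 under Python 3.11.15, and plots made with matplotlib 3.10.9. The code was tested on simulated data. SE is the log2 fold change divided by the root of F, and intervals are 95% t intervals. Positions came from GENCODE M21. No pair of replicates agreed within counting noise (smallest chi-square per degree of freedom 11.0). Same-numbered livers did not deviate together (median r -0.006), so replicate numbers do not pair livers. With 3 mice per group, p-values reflect how much mice of a group vary.

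The rule named all 8 genes in each comparison (the plot of levels shows each library of each gene), and from each pathway list the 4 genes with the smallest p on the fed average, the gene with the smallest p between fasted genotypes, and for each of the 8 the 3 most alike genes over group means (log2 CPM with 0.5 added). The members and lists were chosen with earlier results of these data known.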

Additional observations from a re-analysis of the deposited data

Results flagged for a closer look

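Among the pathway genes set beside the 8 NRF2 genes, 4 of 80 tested (5%) differed between the genotypes by time of day, by the edgeR test that the fed genotype differences at 3 times are equal. This share equals the background, where 4.99% of all genes passed, 665 in number, and leaving out single fed libraries moved that number to between 107 (without WT 10:30 liver 2) and 1834 (without α7HMZ 10:30 liver 1). Syvn1, a ubiquitin ligase of the endoplasmic reticulum that can degrade NRF2 (adjusted p = 0.0378), had log2 fold changes of α7HMZ over WT of 0.40 at 10:30, -1.29 at 13:30 and 0.46 at 20:30. At 13:30 it had 64.4, 71.9 and 109 CPM in α7HMZ livers, against 317, 120.0 and 160.4 CPM in WT livers, so the WT livers spread widely. Nfe2l1, the NRF1 relative of NRF2 (adjusted p = 0.034), had 0.33, -0.51 and 0.10 at the same times. G6pdx, the first enzyme of the pentose phosphate pathway (adjusted p = 0.0424), had -0.63, 0.12 and 0.48, and Aox1, an aldehyde oxidase (adjusted p = 0.0253), had -0.23, 0.74 and 0.53. The call was lost without 9 of the 18 fed libraries, each left out in turn, for Nfe2l1 (adjusted p over all alternatives 0.00232 to 0.0793), without 10 for Syvn1 (0.0151 to 0.0877), without 15 for G6pdx (0.0107 to 0.107) and without 4 for Aox1 (9.49e-04 to 0.0695). WT 10:30 livers 1 and 2, WT 13:30 liver 3 and α7HMZ 10:30 liver 2 were among them for each of the 4 genes. The 10:30 livers were on another flow cell than the 13:30 and 20:30 livers.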

How the results depend on the processing

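Of 2576 fold changes of the 8 genes under alternatives, 2489 stayed on the same side of the threshold, 55 newly passed and 32 no longer passed. The sign of a value that passed in either setting was kept throughout, and 63 of the 2489, which passed in neither, changed sign. The causes of the shifts were not tested. The counts over all genes moved as well. Without the 4 libraries set apart by Rn45s, Krt19 or Ctrb1 there were 482 higher and 658 lower genes at 20:30, against 1105 and 1446, and genotype by time gave 1618 genes with DESeq2, against 665. Upper quartile factors gave 1060 higher and 705 lower genes at 13:30, against 825 and 881, and 1354 and 1153 at 20:30. With 3 mice per group, small changes can be missed, most of all in the scarce Nqo1.

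Without those 4 libraries the number of the 8 genes called was 3 in place of 1 for genotype at fed 10:30, 2 in place of 0 at 20:30, 2 in place of 1 on the fed average, 1 in place of 0 for 20:30 minus 13:30 in α7HMZ, 2 in place of 1 for 13:30 minus 10:30 in WT and 2 in place of 1 for fasting in α7HMZ. Upper quartile factors gave 1 at 20:30, 2 on the fed average, 1 and 2 for 13:30 minus 10:30 in α7HMZ and WT, and 2 for fasting in α7HMZ. GC content and full quantile offsets gave 1 at 20:30, 3 on the fed average, 1 for 13:30 minus 10:30 in α7HMZ, 2 for fasting in α7HMZ and 1 in place of 2 between fasted genotypes. A minimum of 50 counts gave 1 at 20:30, 1 and 2 for 13:30 minus 10:30 in α7HMZ and WT, and 2 for fasting in α7HMZ. DESeq2 gave 1 at 20:30, 1 for 13:30 minus 10:30 in α7HMZ and 2 for fasting in α7HMZ. DESeq2 size factors gave 2 for 13:30 minus 10:30 in WT and 2 for fasting in α7HMZ. All 24 libraries in 1 fit gave 2 for fasting in α7HMZ, no filter gave 1 between fasted genotypes, and only the groups compared gave 2 for 13:30 minus 10:30 in WT and 0 between fasted genotypes. Between fasted genotypes DESeq2 and all 24 libraries in 1 fit gave 3 in place of 2, and for fasting in WT the settings from upper quartile factors to a fit of only the groups compared gave 2 to 4 in place of 3. Leaving out Rn45s changed none of these counts.

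The replicate block gave 1 in place of 0 at 20:30, 2 in place of 1 for fasting in α7HMZ and 1 in place of 2 between fasted genotypes. Because the numbers do not pair the livers (12 of 84 same-numbered pairs correlated above 0.1), the block has no design behind it.

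Leaving out each library in turn gave 1 to 2 calls at fed 10:30, 1 to 1 at 13:30, 0 to 2 at 20:30, 1 to 2 on the fed average, 0 to 1 for 13:30 minus 10:30 in α7HMZ, 1 to 2 in WT, 1 to 2 for fasting in α7HMZ, 1 to 4 in WT and 0 to 3 between fasted genotypes. Genotype by time, genotype by fasting and 20:30 minus 13:30 in WT gave 0 throughout.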
